A study of Mus musculus with 36 samples.

Results

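Histone H3 lysine 9 trimethylation (H3K9me3) was described at the glutamate and GABA receptor genes in mouse offspring liver. The members were the autosomal bins that the deposited annotation assigns to a gene whose symbol begins with Gria, Grik, Grid, Grin or Grm and a digit, or with Gabr and a subunit letter. They came to 42 genes of 21394 with a bin in any table, and to 1549 distinct bins of 404382. Of 43 autosomal symbols that fit this pattern in the RefSeq gene table, only Grin1os had no bin, and the X-linked Gria3, Gabra3, Gabre and Gabrq were left out. The genes comprised 3 AMPA, 5 kainate, 2 delta, 7 NMDA and 8 metabotropic glutamate receptor genes, 13 GABA-A and 3 rho subunit genes, and Grid2ip, which encodes a postsynaptic scaffold protein.

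The offspring were Reg3g-fl/+ or Reg3g-fl/fl mice, floxed littermates of an in-house C57BL/6J colony, and every group shared this background. Their dams ate chow (control) or a Western-style diet (maternal obesity, MO) before mating and through pregnancy and lactation. Livers were taken from females and males at 3 weeks, before weaning, or at 8 weeks, after weaning onto chow, so no offspring ate the Western-style diet after weaning. The 8 groups of control and MO females and males at the 2 ages had 4 ChIP libraries each, 32 in all, beside 4 input libraries. Whole liver was assayed, so each value is an average over all liver cell types.

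Ionotropic glutamate receptors are cation channels that open when glutamate binds, and metabotropic glutamate receptors act through G proteins. GABA-A and rho subunits form chloride channels that open when GABA binds. These genes are best known for fast synaptic signalling in brain, and most of them are little used by hepatocytes. H3K9me3 is a mark of heterochromatin that covers repeats and silent genes.

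Each of the 6 tables covers 2 groups (8 libraries) and gives 1 level per bin, the authors' average log2 CPM, a count scaled to library size. The tables used here hold no value per library, so no spread between animals, no standard error and no test could be given. Every difference stated here is between pooled levels. Values taken from different tables, which were normalized separately, were centred on the median difference of all autosomal bins. A bin is a short piece of a peak, and each peak had 1 bin per table.

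Sequence is shown for 3 bins or promoters that recur in the results, with CpG dinucleotides in capitals (GRCm38, 5′ to 3′). The Grik2 promoter is the RefSeq window from 250 bases before to 50 after the start site, chr10:49788705-49789004 on the minus strand, which a bin overlapped in both sexes. It holds 26 CpGs in 300 bases, against a median of 12 over the 35 windows found for 28 of the receptor genes and 7 over 31396 autosomal windows. The other two are the middle 300 bases of a bin of the male tables on the plus strand. They are an intergenic bin annotated to Grik2 with the largest age difference in males (chr10:47580085-47580384) and a bin in intron 5 of Grm7 that was high in both sexes (chr6:111154006-111154305).
Grik2 promoter: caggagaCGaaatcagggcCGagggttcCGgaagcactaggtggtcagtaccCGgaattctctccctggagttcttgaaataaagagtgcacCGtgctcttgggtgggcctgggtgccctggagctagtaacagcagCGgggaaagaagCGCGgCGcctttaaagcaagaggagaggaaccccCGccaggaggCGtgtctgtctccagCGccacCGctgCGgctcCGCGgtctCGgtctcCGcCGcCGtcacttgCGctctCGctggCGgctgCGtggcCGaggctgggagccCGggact
Grik2 intergenic: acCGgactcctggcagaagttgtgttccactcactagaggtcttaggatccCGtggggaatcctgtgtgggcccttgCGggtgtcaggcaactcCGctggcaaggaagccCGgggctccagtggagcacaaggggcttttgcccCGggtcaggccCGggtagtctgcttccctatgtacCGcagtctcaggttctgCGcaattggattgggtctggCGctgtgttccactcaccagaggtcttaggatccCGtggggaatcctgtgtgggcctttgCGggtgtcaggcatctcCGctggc
Grm7 intron 5: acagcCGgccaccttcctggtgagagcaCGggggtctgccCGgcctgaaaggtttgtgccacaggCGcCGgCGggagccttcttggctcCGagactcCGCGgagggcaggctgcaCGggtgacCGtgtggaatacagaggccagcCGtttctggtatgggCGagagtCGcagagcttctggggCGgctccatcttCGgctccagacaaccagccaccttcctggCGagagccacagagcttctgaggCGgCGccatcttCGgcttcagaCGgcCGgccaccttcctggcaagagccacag

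In the control tables (3 and 8 weeks together), 492 of 114317 autosomal bins in females (0.43%) and 567 of 147360 in males (0.385%) belonged to receptor genes. All 42 genes had a bin in females and 41 in males, where no bin carried the symbol Grin3b. A male bin inside Grin3b was annotated to Tmem259 and stood at 4.36 log2 CPM, above every bin counted as a receptor bin in males. The median level was 2.69 log2 CPM (6.47 CPM) in females, against 2.64 over all autosomal bins. In males it was 2.18 log2 CPM (4.55 CPM), against 2.10. Receptor bins ranged from 2.11 to 3.73 in females and from 1.44 to 3.58 in males. The upper end held more receptor bins: 7.72% of them in females and 9.35% in males lay above the 95th percentile of all bins. In the MO-containing tables the receptor median was likewise 0.03 to 0.09 log2 above that of all bins (2.43 and 2.40 in females at 3 weeks, 2.71 and 2.62 in females at 8 weeks, 2.11 and 2.03 in males at 3 weeks, 2.81 and 2.74 in males at 8 weeks).

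**Figure D1:**
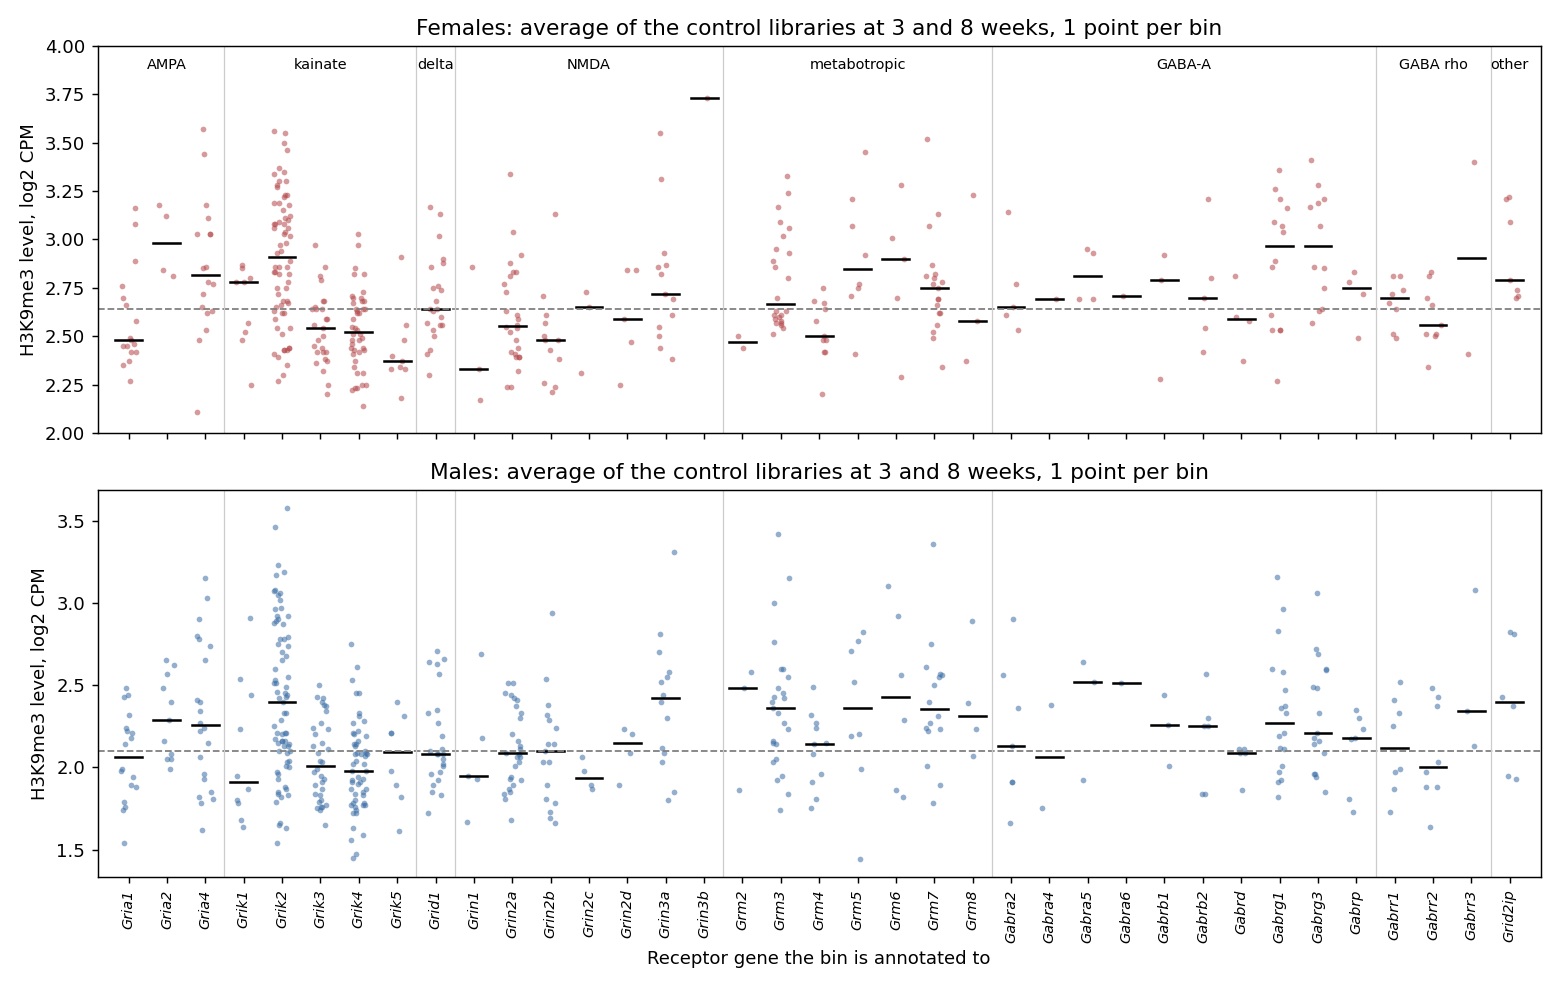
H3K9me3 level (log2 CPM, authors' average over control libraries of both ages) of each bin, by receptor gene and sex, with the median of each gene as a black bar and the median of all autosomal bins as a dashed line. Grik2 has the most bins (68 in females and 75 in males), and most genes have bins on both sides of the dashed line.

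Receptor bins lay far from start sites. Their median distance to the nearest transcription start site was 77365.5 bp in females and 75957 bp in males, against 17050 and 17117 bp for all bins. Distal intergenic bins made up 49.0% of receptor bins in females and 47.8% in males (43429 of all 114317 bins in females, and 37.9% of all bins in males). Bins in introns after the first made up 24.8% and 27.0% (18.7% and 20.1% of all bins). Promoters, within 3 kb of a start site, held 58 receptor bins in females (11.8%, against 21.6% of all bins) and 57 in males (10.1%, against 20.3%). Only 224 of 492 bins in females (45.5%) and 259 of 567 in males (45.7%) lay inside the gene whose symbol they carried.

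**Figure D2:**
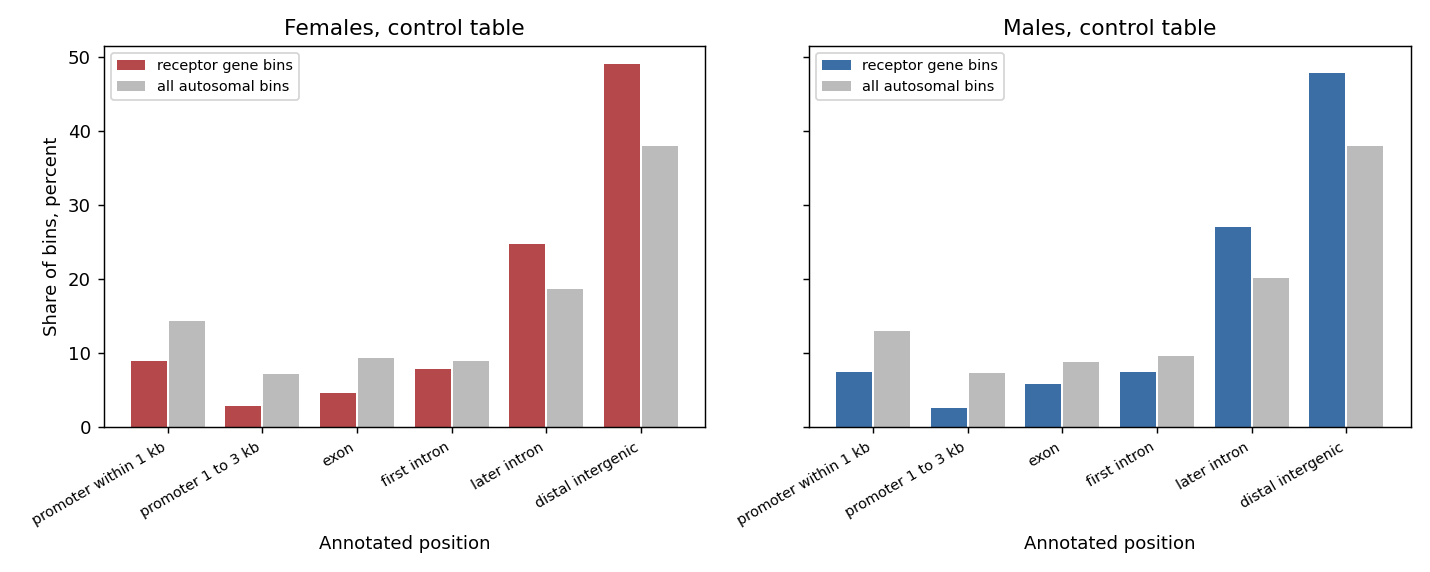
Share of bins (percent) by annotated position for receptor gene bins (coloured) and all autosomal bins (grey) in the control table of each sex. Distal intergenic bins take 47.8% of receptor bins in males against 37.9% of all bins, and in females promoters within 1 kb take 8.94% against 14.4%.

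The bodies of the long receptor genes held few bins for their length. Among genes of at least 100 kb, the 23 receptor genes had a median of 1.82 bins per 100 kb of gene body in females, against 3.59 over 2369 protein-coding genes. In males the medians were 2.09 and 4.56. Grik3 and Grik4 stood highest, at 13.9 and 12.0 bins per 100 kb in females and 18.3 and 17.1 in males. Grid1 (5.63 and 6.94) was also above the median of all genes in both sexes and Grin2b (5.00) in males, whereas 7 of the 23 had under 1 bin per 100 kb in females, among them Grm8 (0.698), Gabra2 (0.723) and Grm7 (0.76). Shorter receptor genes such as Grm6 (25.8 bins per 100 kb in females), Grik5 (19.2) and Gabrr2 (18.3) were denser. Gene symbols follow the nearest start site, so they miss part of the bodies. Of 336 bins with their middle inside a receptor gene in females, 223 (66.4%) carried the gene's own symbol, and in males 259 of 419 (61.8%). The count above of 224 in females also takes a Grm3 promoter bin whose middle lies just before the gene. None of the 31 bins inside Grik3 in females carried its symbol, and 30 of them were annotated to Mir692-2. In Grid1, 26 of 43 bins were annotated to Mir346, and in Grik4 12 of 51 to Tbcel. The 27 bins named Grik3 were therefore 1 promoter bin and 26 intergenic bins.

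At the start sites themselves, 14 of the 35 RefSeq promoter windows of receptor genes overlapped a bin in females (40.0%, against 23.1% of all windows) and 11 in males (31.4%, against 26.6%). The windows of Gria2, Gria4, Grik2, Grin1, Gabrb1 and Grm7 were overlapped in both sexes. Receptor promoter bins had a median GC content of 60.5% and 22.5 CpGs in females (57.3% and 14 over all promoter bins), and the Grik2 window printed above is among the CpG-rich ones. Over bins at every position the median GC content of receptor bins was 54.5%, against 54.4% for all bins. Bases masked as repeats in the reference took a median of 23.9% of a receptor bin in females, against 11.9% of all bins, and 25.9% against 12.2% in males. Over 90% masked were 15.2% of the female and 16.8% of the male receptor bins (all bins: 7.15% and 6.93%). The distal intergenic receptor bins were the most masked, with medians of 60.5% and 65.5% (29.5% and 26.2% of all distal bins). How reads that map to several copies of a repeat were treated is not given in the sources used here, and its part in these levels was not tested.

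Among the AMPA receptor genes, which encode the channels of fast excitatory transmission, Gria1 had 17 bins in females and 18 in males, Gria2 4 and 11, and Gria4 18 and 22. The median level of the family was 2.72 log2 CPM in females and 2.21 in males. The highest AMPA bin in females, at 3.57 log2 CPM, was annotated to Gria4 from upstream of its start site and lay in exon 1 of Gm7390 (chr9:4977538-4978038, 32 CpGs). It was not listed in the other female tables, so it has no age or diet value.

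The kainate receptor genes held about as many bins as the next 2 families together, 157 in females (31.9% of receptor bins) and 182 in males (32.1%). Grik2 alone had 68 and 75, of which 57 in females were distal intergenic, and these spread up to 1611283 bp from its start site. Grik4 had 44 and 55, of which 39 and 48 lay inside the gene. Grik3 had 27 and 34, Grik1 9 and 10, and Grik5 9 and 8. Levels divided within the family: the Grik2 median was 2.91 log2 CPM in females and 2.40 in males, and those of Grik3 (2.54 and 2.01) and Grik4 (2.52 and 1.98) were below the median of all bins. The 2 highest receptor bins in males were Grik2 intergenic bins, chr10:47579985-47580485 at 3.58 log2 CPM and chr10:48228993-48229493 at 3.46, and chr10:49003740-49004223 was at 3.56 in females.

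The delta receptor genes encode members of the glutamate receptor family that act in synapse organisation. Grid1 had 22 bins in females and 24 in males. Of the 52 bins of the family in females, 53.8% were intronic, and their median masked share was 60.2%. Grid2ip had 7 and 6 bins.

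NMDA receptors are calcium-permeable channels built around the obligatory GRIN1 subunit. Grin1 itself had 3 bins in females and 5 in males. Grin2a had 26 and 28, Grin2b 12 and 17, Grin2c 3 and 4, Grin2d 5 and 4, and Grin3a 13 and 14. The family median was the lowest of the 7 families in each sex, 2.57 log2 CPM in females and 2.10 in males. The single Grin3b bin in females (chr10:79976184-79976684) had the highest level of any receptor bin, 3.73 log2 CPM or 13.3 CPM, the 99.6th percentile of all bins. It lay 1775 bp from a start site in a 14478 bp peak, and in the female 8-week table it was at 3.99.

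Of the metabotropic receptor genes, the group I receptor Grm5 had 8 bins in females and 8 in males. The group II receptors Grm2 and Grm3 had 2 and 24 in females and 3 and 25 in males. The group III receptors Grm4, Grm6, Grm7 and Grm8 had 11, 5, 19 and 3 in females and 11, 6, 16 and 4 in males. Grm5 carried the highest bin within 1 kb of a start site in females, 3.45 log2 CPM (chr7:87584103-87584603, overlapping the start site). The Grm7 intron 5 bin, wholly repeat-masked and with 27 CpGs, stood at 3.52 in females and 3.36 in males. In males the Grm3 intergenic bin chr5:9849460-9849960, inside a 4369 bp peak, was at 3.42.

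The GABA-A genes had 80 bins in females and 98 in males. The alpha subunits help to form the GABA binding site, and their genes had few bins: Gabra2 had 5 and 7, Gabra4 1 and 2, Gabra5 4 and 3, and Gabra6 1 and 1. The beta genes Gabrb1 and Gabrb2 had 3 and 5 in females and 3 and 6 in males. The gamma genes Gabrg1 and Gabrg3 had 14 and 12 in females and 18 and 17 in males. All of the Gabrg1 bins in females were intergenic, while all 12 and 17 Gabrg3 bins lay inside Gabrg3. Gabrd had 4 and 5 bins and Gabrp 4 and 7. The medians of Gabrg1 and Gabrg3 in females, 2.97 and 2.96 log2 CPM, were above that of the family (2.78), and in males they were at 2.27 and 2.21, beside 2.25. The rho genes, first described in retina, had 8 and 8 bins (Gabrr1), 9 and 8 (Gabrr2) and 2 and 3 (Gabrr3).

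Females and males were compared in the control tables at bins that overlapped by at least 50% of the shorter one. A match was found for 292 receptor bins of 38 genes, 59.3% of those in females (51.1% of all female bins) and 51.5% of those in males. Levels at the matched receptor bins had a Spearman rho of 0.70 between the sexes across bins, which share their sequence and are not independent, and it was 0.61 over all 58454 matched bins. After the general shift of −0.46 log2 was removed, the median male minus female difference was 0.06 log2. Levels were higher in males by more than 0.5 log2 at 12 receptor bins, 4.11% of 292 against 2.91% of all matched bins, and lower at 7, 2.40% against 3.13%. The largest positive differences were at intergenic bins of Gabrg1 (chr5:70913254-70913441, 2.27 log2 CPM in females and 2.58 in males, 0.77 centred) and Grik2 (chr10:47579986-47580486, 3.30 and 3.58, 0.73). On the negative side an intergenic Gria4 bin stood at 3.03 and 1.85 (chr9:5022292-5022736, −0.72).

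The age comparison set the level at 8 weeks against that at 3 weeks, over control and MO libraries together, at bins with identical coordinates in both tables of a sex. Over all autosomal bins the level was higher at 8 weeks by 0.22 log2 in females and 0.63 in males, while the tables listed fewer bins at 8 weeks (109596 against 133697 in females and 101386 against 158810 in males). These shifts were removed, and all age differences below are relative to them. At 359 receptor bins of 39 genes in females the median difference was 0.04 log2, and at 320 bins of 37 genes in males 0.03. In females 17 receptor bins were higher at 8 weeks by more than 0.5 log2 (4.74%) and 8 lower (2.23%). The background over 71972 bins was 3.47% and 2.78%. In males 19 were higher (5.94%) and 10 lower (3.12%), against a background of 5.43% and 3.47% over 68657 bins. The receptor genes as a group thus stood close to the background in both sexes. Of the higher bins, 6 in each sex were annotated to Grik2, out of its 59 bins compared in females and 55 in males. Without this gene 11 remained in females and 13 in males.

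**Figure D3:**
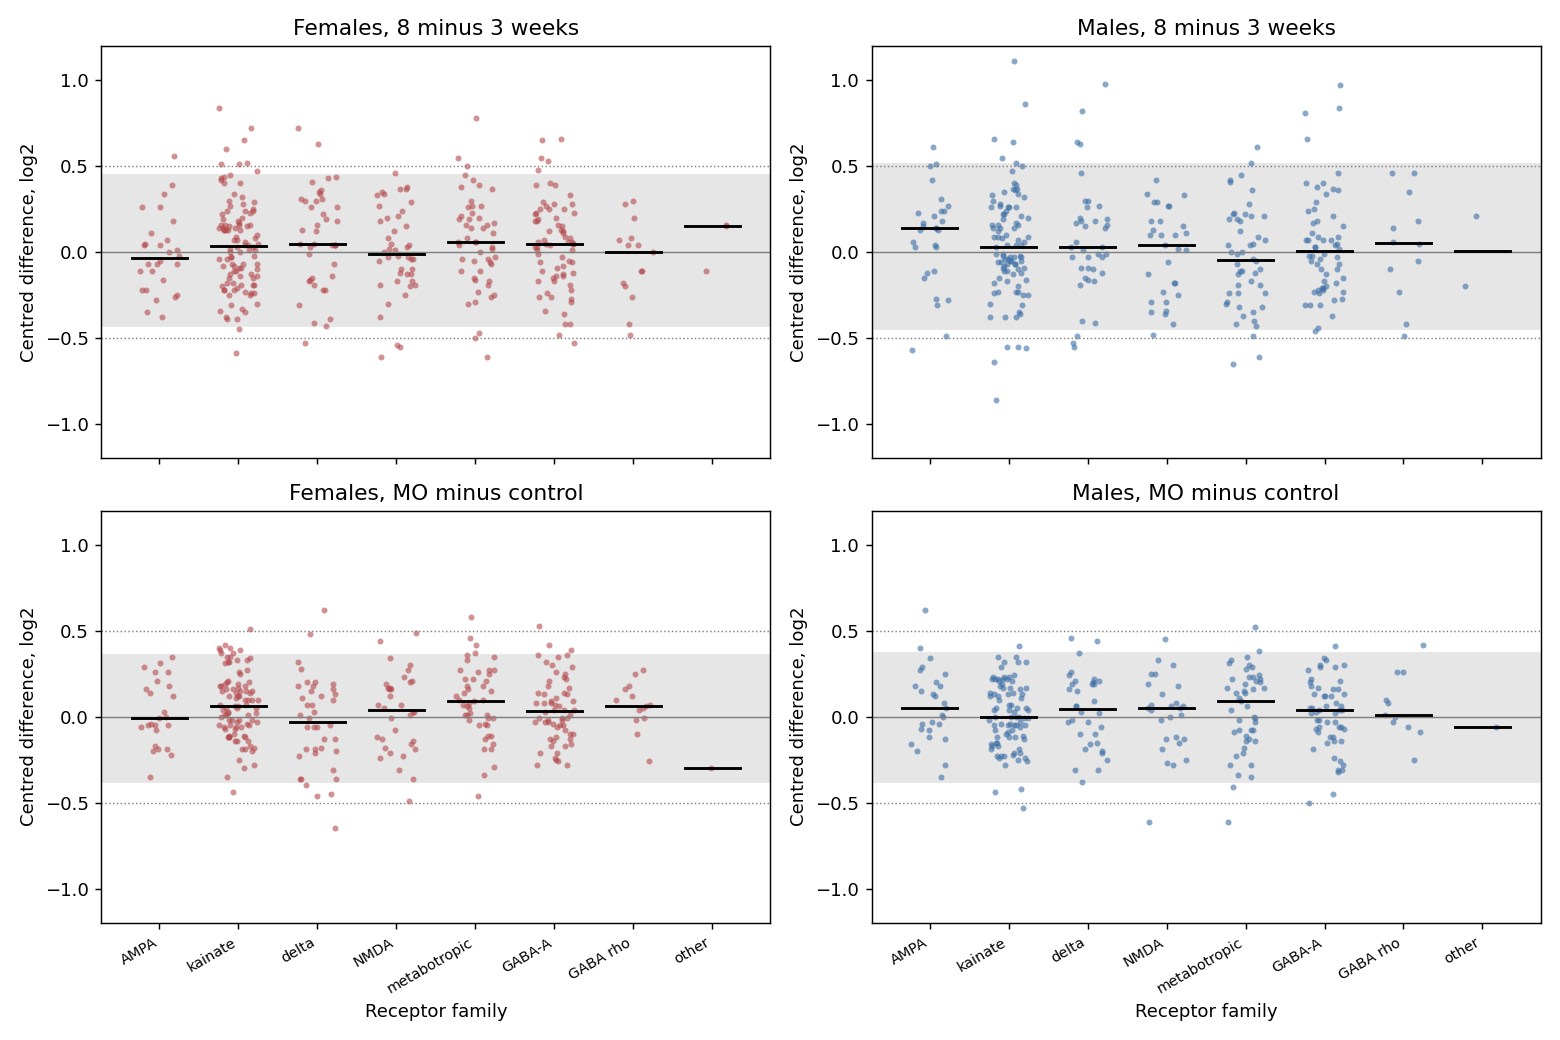
Centred difference (log2) at each receptor bin by family, for 8 minus 3 weeks (top) and MO minus control (bottom), in females (left) and males (right). Black bars are family medians, the grey band spans the 5th to 95th percentile of all autosomal bins, and dotted lines mark 0.5; every family with more than 3 bins has its median between −0.04 and 0.14.

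Family medians for age ran from −0.04 (AMPA) to 0.06 (metabotropic) in females and from −0.04 (metabotropic) to 0.14 (AMPA) in males, leaving out Grid2ip with 3 and 2 bins. The kainate family had a median of 0.03 in both sexes. Among its 106 female bins, 7 were higher (6.6%, against 3.47% of all female bins). Among its 97 male bins the count was also 7 (7.22%, against 5.43% of all male bins). The delta share was larger in males, at 4 of 39 (10.3%), and smaller in females, at 2 of 41 (4.88%). No NMDA or rho bin was higher by more than 0.5 in either sex, and 3 of 44 NMDA bins in females (6.82%, against 2.78% of all bins) and 0 of 31 in males (against 3.47%) were lower. By position, the 27 receptor promoter bins of females had a median of 0.06 and the 24 of males 0.15, beside 0.02 and 0.06 over all promoter bins. Receptor exon bins were at −0.15 (females, 17 bins) and −0.10 (males, 21 bins), beside −0.02 over all exon bins of each sex. Receptor intron bins were at 0.02 (113 bins) and −0.06 (99 bins), beside −0.04 over all intron bins of each sex. Distal intergenic receptor bins were at 0.06 (196 bins) and 0.07 (171 bins), beside 0.02 and 0.00. In males introns held 8 of the 10 lower and 6 of the 19 higher receptor bins, and in females 1 of 8 and 6 of 17. Distal sequence held 1 and 12 in males and 6 and 9 in females. Shares past 0.5 over all bins by position are not given.

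The largest age difference in females was at the Grik2 promoter (chr10:49788382-49788882). Its level was 2.50 log2 CPM in the 3-week table, 3.56 in the 8-week table and 3.27 in the control table, a centred difference of 0.84 log2 at the 99.83rd percentile of all bins. In males the matching bin (chr10:49788359-49788859) was at 2.68 and 3.53, a centred difference of 0.22. With trends in GC and level removed, these differences were 0.60 in females and −0.08 in males. GRIK2 is a kainate receptor subunit that forms channels alone or with GRIK4 and GRIK5. Next in females came the Grm7 intron 5 bin (2.75 and 3.75, 0.78). The Grm7 bin is 100% repeat-masked, and the Grik2 promoter bin 4.59%.

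The largest age difference in males was at the Grik2 intergenic bin printed above (chr10:47579985-47580485), 1523446 bp from the start site. It stood at 2.55 log2 CPM in the 3-week table and 4.29 in the 8-week table, a centred difference of 1.11 and the only receptor bin past 1 log2. Other large differences were at an intergenic bin of Gabrg1 (chr5:70398581-70399081, 2.11 and 3.70, 0.97) and a bin in intron 3 of Gabrg3 (chr7:57142952-57143452, 2.49 and 3.93, 0.81). These 3 bins are 96.4% to 100% repeat-masked and hold 16 to 30 CpGs.

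The bins that were lower at 8 weeks had few CpGs. In females they were led by intergenic bins of Grin2a (chr16:9341036-9341428, 2.73 log2 CPM at 3 weeks and 2.33 at 8 weeks, −0.61 centred), Grm4 (chr17:27533208-27533708, 2.87 and 2.47, −0.61), Grik2 (chr10:49959865-49960224, 3.11 and 2.74, −0.59) and Grin3a (chr4:50287076-50287576, 2.60 and 2.28, −0.54). They hold 3 to 7 CpGs each. In males the lowest was in intron 3 of Grik4 (chr9:42757424-42757924, 2.49 and 2.25, −0.86), and 4 of the 10 lower bins belonged to Grik4, which encodes a high-affinity kainate subunit. Of its 20 bins in males 1 was higher, and of its 23 in females 1 was higher and 0 lower. Then came a Grm3 bin in intron 1 of Gm31831 (chr5:10257087-10257540, 2.77 and 2.75, −0.65), a bin in intron 11 of Grik2 (chr10:49288561-49288887, 2.58 and 2.57, −0.64) and an intergenic Grm7 bin (chr6:110220160-110220660, 2.75 and 2.78, −0.61). Before centring only the Grik4 bin was lower by more than 0.1 (−0.23), and the other 9 lower bins of males were between −0.02 and 0.10, the Grm7 bin at 0.03. Apart from the Grik4 bin at −0.23, the lower bins of males are thus low mainly against the general shift. The tables of the 2 ages were normalized separately and list different bins. Values before centring therefore cannot show whether a bin changed against its own 3-week level.

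The bins on the higher side were rich in CpGs and repeats. The 17 higher receptor bins in females had a median of 37.9 CpGs per kb and 90.1% masked bases, the 8 lower ones 6.99 CpGs per kb and 56.7%, and the 334 between them 18.0 CpGs per kb and 38.8% masked bases. In males the medians were 36.8 CpGs per kb and 96.2% masked for the 19 higher, 9.62 and 31.5% for the 10 lower, and 20.0 and 51.7% for the 291 between. Over all autosomal bins the higher ones had medians of 37.0 CpGs per kb in females and 41.3 in males, so the CpG content is that of higher bins in general. Bins over 90% masked were 9 of the 17 higher in females (52.9%, against 31.7% of all higher autosomal bins) and 11 of the 19 in males (57.9%, against 29.0%). Over 90% masked, the share of higher receptor bins was close to that of all bins, and in less masked classes it varied on few bins. Of receptor bins over 90% masked, 13.2% in females (9 of 68) and 15.1% in males (11 of 73) were higher by more than 0.5, and of all such bins 11.9% and 15.4%. Of receptor bins masked up to 30%, 2.55% (4 of 157) and 1.45% (2 of 138) were higher, and of all such bins 1.85% and 3.59%. From 30% to 60% masked, 0 of 49 and 1 of 27 (3.7%) were higher, beside 2.61% and 3.46%. From 60% to 90%, 4 of 85 (4.71%) and 5 of 82 (6.1%) were higher, beside 6.11% and 8.03%. The medians of the most masked class were 0.15 in females and 0.18 in males, beside 0.18 over all bins in each sex. The level differed in the same direction: the higher receptor bins had a median mean level of 2.92 log2 CPM in females and 2.94 in males, and the lower ones 2.53 and 2.57. After trends with GC and level were removed over all bins, 11 higher (3.06%) and 3 lower (0.836%) receptor bins were left in females, beside 2.17% and 2.10% of all bins. In males 18 higher (5.62%) and 5 lower (1.56%) were left, beside 3.84% and 2.51%. The part of repeats in these differences was not tested.

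**Figure D4:**
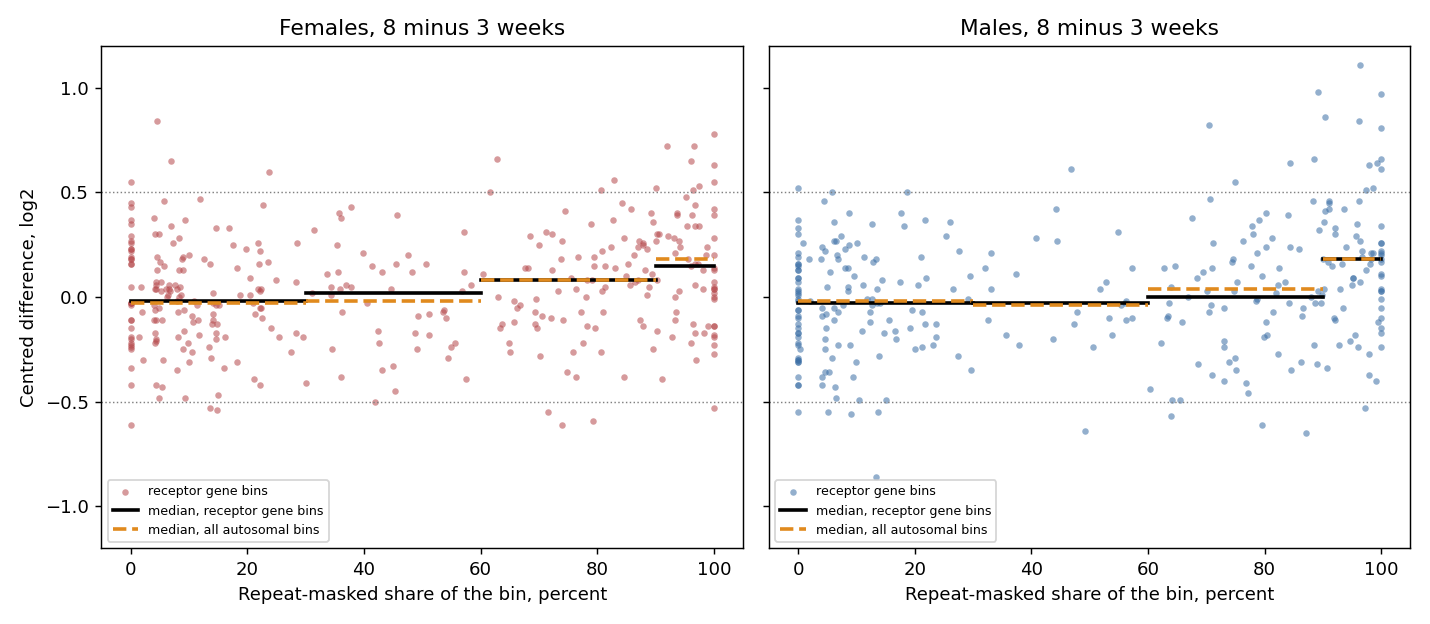
Centred age difference (log2, 8 minus 3 weeks) of each receptor bin against its repeat-masked share (percent), with the median of receptor bins (black) and of all autosomal bins (orange, dashed) in 4 classes of masked share. Both medians are lowest up to 60% and highest above 90%, at 0.15 and 0.18 in females and 0.18 and 0.18 in males.

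The age differences of females and males share no library. At 199 receptor bins of 33 genes matched between the sexes they had a Spearman rho of 0.43 across bins, and over all 33982 matched bins it was 0.42. The sign was the same at 130 of the 199 (65.3%, against 64.2% of all). At 5 receptor bins the level was higher at 8 weeks by more than 0.5 in both sexes, at none lower in both, and at none opposite. The 5 are 2.51% of the 199, beside 1.77% of all matched bins that were higher in both and 0.259% that were lower in both. The 5 were an intergenic Gabrg1 bin (chr5:70398623-70399108, 0.65 in females and 0.97 in males), Grik2 intergenic bins at chr10:47579986-47580486 (0.51 and 1.11) and chr10:48423464-48423964 (0.51 and 0.64), a bin in intron 1 of Grik4 (chr9:42892602-42893102, 0.65 and 0.50) and the Grm7 intron 5 bin (chr6:111153887-111154387, 0.78 and 0.61). The Grik4 bin was 6.99% masked, and the other 4 were 80.6% to 100% masked. The Grm7 and Grik2 sequences printed above are 2 of these bins.

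**Figure D5:**
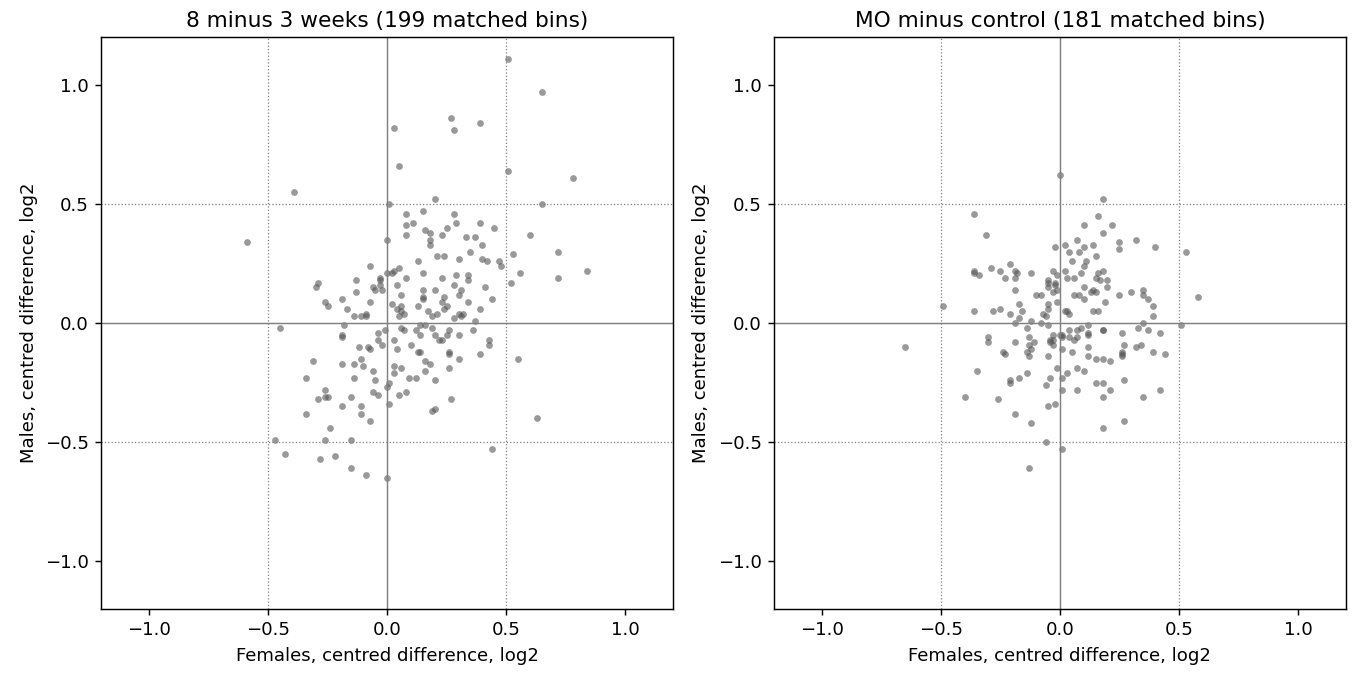
Centred difference (log2) in females (x axis) against males (y axis) at matched receptor bins, for 8 minus 3 weeks (left, 199 bins) and MO minus control (right, 181 bins), with dotted lines at 0.5. The age differences run along the diagonal (rho 0.43) and the diet differences do not (rho 0.05).

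The diet comparison asked whether offspring of MO dams differed from controls over both ages. The level of the MO groups was not in any table by itself and was solved on the linear scale from the 3 tables of a sex, so the control level enters the difference on both sides and the age and diet differences share their libraries. The general shift was −0.25 log2 in females and 0.44 in males and was removed. At 317 receptor bins of 38 genes in females the median MO minus control difference was 0.05 log2, and at 290 bins of 36 genes in males 0.04. By more than 0.5 log2, 4 receptor bins were higher with MO in females (1.26%, against 0.935% of all 62457 bins) and 1 was lower (0.315%, against 1.61%). In males 2 were higher (0.69%, against 1.18% of 60288 bins) and 4 lower (1.38%, against 1.62%). These shares lay near the background or under it.

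The largest MO differences were spread over glutamate and GABA receptor genes of several families. In females they included, on the higher side, an intergenic Grm3 bin (chr5:9786705-9787205, levels of 2.90, 2.64 and 2.60 log2 CPM in the 3-week, 8-week and control tables, 0.58 centred) and a bin in intron 4 of Gabrb1 (chr5:71863207-71863632, 2.95, 3.22 and 2.92, 0.53). On the lower side was an intergenic Grin3a bin (chr4:50303327-50303562, 2.38, 2.63 and 2.86, −0.49). In males the highest were in intron 4 of Gria4 (chr9:4659777-4660277, 2.04, 2.90 and 1.93, 0.62) and intron 4 of Grm5 (chr7:87913336-87913612, 2.22, 3.13 and 2.20, 0.52). The lowest were intergenic bins of Grin3a (chr4:50524589-50525089, 2.69, 3.75 and 3.31, −0.61), Grm3 (chr5:9971909-9972354, 2.37, 2.99 and 2.76, −0.61) and Grik2 (chr10:47579985-47580485, 2.55, 4.29 and 3.58, −0.53). The last is the bin with the largest age difference in males, and its diet difference was 0.18 before centring. The Grin3a and Grm3 bins were at 0.00 and −0.08 before centring. Without centring the tables are also not scaled to their medians before the MO level is solved, so these values differ from the centred ones by more than the shift.

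No receptor bin passed 0.5 for diet in the same direction in both sexes, and of all 30281 matched bins only 4 (0.0132%) were higher and 5 (0.0165%) lower in both. At 181 matched bins of 31 genes the diet differences of females and males had a Spearman rho of 0.05, the same as over all 30281 matched bins, and the same sign at 88 (48.6%, against 52.4%). The Grik2 promoter, with the largest age difference in females, was at −0.12 for diet. Leaving out Grid2ip with 1 bin in each sex, family medians for diet ran from −0.03 (delta) to 0.09 (metabotropic) in females and from 0.00 (kainate) to 0.09 (metabotropic) in males.

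Genes of the same pathway were read from lists of partner genes. All 31 auxiliary subunit and scaffold genes, such as Cacng2, Shank2, Homer1 and Dlgap1, had bins in both sexes (508 in females and 664 in males). Their median level was 2.62 log2 CPM in females and 2.08 in males, and the level at 8 weeks exceeded that at 3 weeks by more than 0.5 at 10 bins of 328 and 13 of 286, with 6 and 10 lower. All bins had 3.47% higher and 2.78% lower in females and 5.43% and 3.47% in males, as above. The 5 GABA-B and glycine receptor genes had 68 and 91 bins, 50 and 69 of them at Gabbr2, with 0 of 45 and 1 of 40 higher and 1 and 1 lower. Transporters and enzymes of glutamate and GABA had bins at 20 of 20 genes in females and 19 in males. Their age medians were 0.01 and −0.04, with 4 of 90 and 3 of 80 bins higher and 3 and 1 lower.

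The mark does not name a cell type, but the genes of the labelled tissue can be set beside the receptors. Alb, Apoa2, Fgb and Tf, which hepatocytes express strongly, had no bin in either sex. Of 10 hepatocyte genes, 5 had a bin in females and 6 in males, with Cps1 and Apob carrying most of them. Neuronal genes with a bin numbered 6 of 6 in females and 5 in males, where Tubb3 had none. Rbfox3 held 52 of the 78 neuronal bins in females and 67 of the 94 in males. These counts take no account of gene length. The median number of bins per 100 kb was 0.0 for the hepatocyte genes in each sex. For the neuronal genes it was 1.81 in females and 2.03 in males.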

How the data were processed

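Liver chromatin was immunoprecipitated for H3K9me3. As the methods describe, the authors mapped reads to mm10/GRCm38 with BWA, called broad MACS2 peaks outside blacklisted regions, merged those of at least 3 replicates over conditions for each sex, cut long peaks into bins, counted with featureCounts and annotated with ChIPseeker. The deposited log2 values are the authors' average log2 CPM over the 8 libraries of a table's 2 groups. Deposited widths and distances to start sites are in base pairs. The 3 columns of the authors' own comparisons per table (fold changes, p-values and FDRs) were not used. How the listed bin of a peak was chosen, and the exact depth of each library, are not given in the sources used here, and the tables hold no value per library. The planned test on values per library was therefore not run, and a difference past 0.5 log2 is a size, not a test.

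Age differences are 8-week minus 3-week levels at identical bins. The MO level was solved from the 3 tables of a sex on linear CPM, each scaled to its median. Sex differences used control bins overlapping by 50%. All were centred. GC, CpG and soft-masked shares were read from GRCm38, and gene bodies from GENCODE M21. The solver was tested on simulated data in which all groups had the same bins and no general shift. That test does not cover tables that list different bins and differ by a shift, as these do. Python 3.11.15, pandas 2.3.3, numpy 2.4.6 and matplotlib 3.10.9 were used.

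Members and lists were chosen with earlier results of these data known. Named bins were, in each sex, the 4 highest levels, the 2 highest promoters within 1 kb, the 4 largest age differences and the 3 largest diet differences in each direction with at most 1 bin per gene, and the 2 largest sex differences in each direction. Settings tried were no centring, thresholds of 0.3 and 1, overlap matching, bins above the median level, removal of GC and level trends, promoter and gene body bins, values by gene, leaving out Grik2, single-bin peaks and the log2 scale. Members by position inside the gene were added after seeing the data. Some genes that the rule takes are not reported here by name, and counts over the receptor genes include them.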

Additional observations from a re-analysis of the deposited data

How the results depend on the processing

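No paired analysis was possible because the tables hold no value per library, and for the same reason no replicate could be left out. Matching females and males by identical coordinates gave no receptor bin and so no value. Without centring, the medians were 0.25 (females) and 0.66 (males) for age, −0.20 and 0.48 for diet and −0.40 for sex. The bins past 0.5, higher and lower, were then 62 and 0 (females) and 228 and 0 (males) for age, 0 and 30 and 131 and 0 for diet, and 0 and 105 for sex. The higher receptor bins for age were then 17.3% and 71.2%, beside 14.8% and 68.0% of all bins. For diet 9.46% in females were lower, beside 16.5%, and 45.2% in males higher, beside 39.1%. For sex 36.0% were lower, beside 43.5%. Single bins also turned: the male Grm7 bin to 0.03 for age and the male Grik2 bin to 0.18 for diet. For diet, leaving out centring also leaves out the scaling of the tables.

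At a threshold of 0.3, the higher and lower bins were 54 and 31 (females) and 51 and 44 (males) for age, 39 and 18 and 24 and 17 for diet, and 38 and 30 for sex. For age these were 15.0% and 8.64% in females, beside 13.4% and 12.7% of all bins, and 15.9% and 13.8% in males, beside 15.5% and 14.1%. For diet they were 12.3% and 5.68% in females, beside 8.43% and 9.63%, and 8.28% and 5.86% in males, beside 9.21% and 9.75%. For sex they were 13.0% and 10.3%, beside 12.3% and 12.4%. At a threshold of 1, 1 bin was left higher and 0 lower for age in males, and 0 in each direction for age in females, for diet in both sexes and for sex. With 1 value per gene, 1 gene (Gabrb1, with 1 bin at 0.66) was higher for age in males, and 0 were past 0.5 elsewhere.

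For age in females, higher and lower bins were 7 and 1 above the median level, 11 and 3 after GC and level trends were removed, 8 and 2 in promoters and gene bodies, 5 and 4 in single-bin peaks and 11 and 5 by position inside the gene, and 11 were higher without Grik2. For age in males, they were 10 and 1 above the median level. In males they were 18 and 5 after trends were removed and 7 and 9 in promoters and gene bodies. In single-bin peaks they were 10 and 8, and by position inside the gene 10 and 9. For diet in females, they were 1 and 0 in promoters and gene bodies and 2 and 0 by position inside the gene. For diet in males, 1 was higher above the median level, 0 were lower in promoters and gene bodies, and 5 were higher by position inside the gene. The bins above the median level were 149 in females and 143 in males, and of all such bins 4.73% and 6.97% were higher and 0.321% and 0.68% lower. Single-bin peaks held 185 and 182 receptor bins, and of all such bins 3.47% and 4.45% were higher and 3.28% and 4.27% lower. For promoters and gene bodies, position inside the gene and the set without Grik2, no share over all bins is given. Those counts cannot be read against a background. The cause of these changes in count was not tested. With a promoter limit of 1 kb, 7.41% of male receptor bins were in promoters. The 66 values tried that moved less, some of them printed above, had counts within 1.5 times those reported. Among them the male age median of 0.03 turned to −0.04 in promoters and gene bodies and to −0.02 by position inside the gene, and was 0.00 without Grik2. The male diet median of 0.04 was 0.00 in promoters and gene bodies and by position. The number of libraries and the lack of a value for each limit every count here.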

Other observations

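Among the transporters and enzymes of glutamate and GABA, which are partly liver genes, the widest range was at Abat, the GABA transaminase that breaks down GABA. It was chosen after its values were seen. Its 17 bins in females had a median of 2.74 log2 CPM and reached 4.63, and its centred age differences ran from −0.71 to 0.80. In males its 21 bins reached 3.15, and the age differences ran from −0.79 to 0.35. Slc1a4, a neutral amino acid transporter, reached 3.98 in females and 3.88 in males, with age differences from −0.75 to 0.73 and from −0.35 to 0.75. Glul, the glutamine synthetase of pericentral hepatocytes, had 9 and 8 bins that reached 3.28 and 2.37.

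Dlgap1, a postsynaptic scaffold gene chosen in the same way, had the largest centred age difference of the scaffold list in females, 1.17, and reached 1.00 in males, where another gene of the list reached 1.26. None of these differences has a replicate check.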
